A study of Homo sapiens with 3 samples.

Results

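The SLC25 family is the set of mitochondrial solute carriers, and its messenger RNAs were described here in Hep3B cells, an established human hepatoma line. Members were all genes named SLC25A followed by a number in the deposited tables that were analysed here, 46 of 61487 genes. Polyadenylated RNA was sequenced from cells labelled wild type and kept in the same serum-containing medium in 3 conditions, with 1 library each: 1% oxygen with oxamate sodium (oxamate-treated hypoxia), 1% oxygen alone (hypoxia) and 20% oxygen (normoxia). Oxamate is a pyruvate analogue that inhibits lactate dehydrogenase, and the labels do not state its dose. The design text states 48 hours with oxamate, and whether that time also holds for the other cultures is not given. The libraries held 24826365, 26309340 and 27412147 fragments in oxamate-treated hypoxia, hypoxia and normoxia. Since each condition had 1 library, no difference could be set against replicate spread and no p-value is given. Ratios of normalised fragments carry a 95% Clopper-Pearson interval, printed in parentheses after each fold, and fragments are not independent molecules, so the intervals hold counting error alone and leave out the variation from culture to culture. A gene was counted as measured in a comparison with at least 50 fragments in a library of the pair where it was higher, and as higher or lower from a 2-fold ratio. Levels are compared between genes only in FPKM, which is per exon length and per library, and gene coordinates are those of the files (hg38).

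Carriers of the SLC25 family sit mostly in the mitochondrial inner membrane and pass metabolites, nucleotides, inorganic ions and cofactors between the cytosol and the matrix, usually by exchanging one substrate for another. They are built from repeats of a related domain, are made in the cytosol, and reach the inner membrane through the TOM complex, the small TIM chaperones and the TIM22 complex. In liver cells they connect the citric acid cycle with fatty acid synthesis, gluconeogenesis, amino acid breakdown, heme synthesis and the export of ATP. A few members sit elsewhere: SLC25A17 is peroxisomal and SLC25A46 lies in the outer membrane.

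Of the 46 members, 35 had at least 50 fragments in at least 1 library and 11 did not. Summed over the family, the level was 378 FPKM in oxamate-treated hypoxia, 394 FPKM in hypoxia and 657 FPKM in normoxia. On the scale of normalised fragments the summed family was 1.59-fold lower (1.57 to 1.61) in hypoxia than in normoxia, and the sums of oxamate-treated hypoxia and hypoxia differed by 1.03-fold (1.01 to 1.04), with the sign turning under scaling by total fragments (1.02-fold lower). A small set of carriers made up most of this sum: SLC25A5, SLC25A1, SLC25A3, SLC25A23 and SLC25A39 together held 62.9% of the family's FPKM in oxamate-treated hypoxia, 65.1% in hypoxia and 70.1% in normoxia. SLC25A5 alone stood at 117, 121 and 196 FPKM in oxamate-treated hypoxia, hypoxia and normoxia, the highest level in the family in each library. At the other end of the measured members, SLC25A12 stood at 0.123, 0.323 and 0.108 FPKM in the same order of libraries, the lowest of the 35 in each. The measured carriers thus spanned a wide range of levels within each library, and the high end of that range was lower in both low-oxygen libraries.

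**Figure D1:**
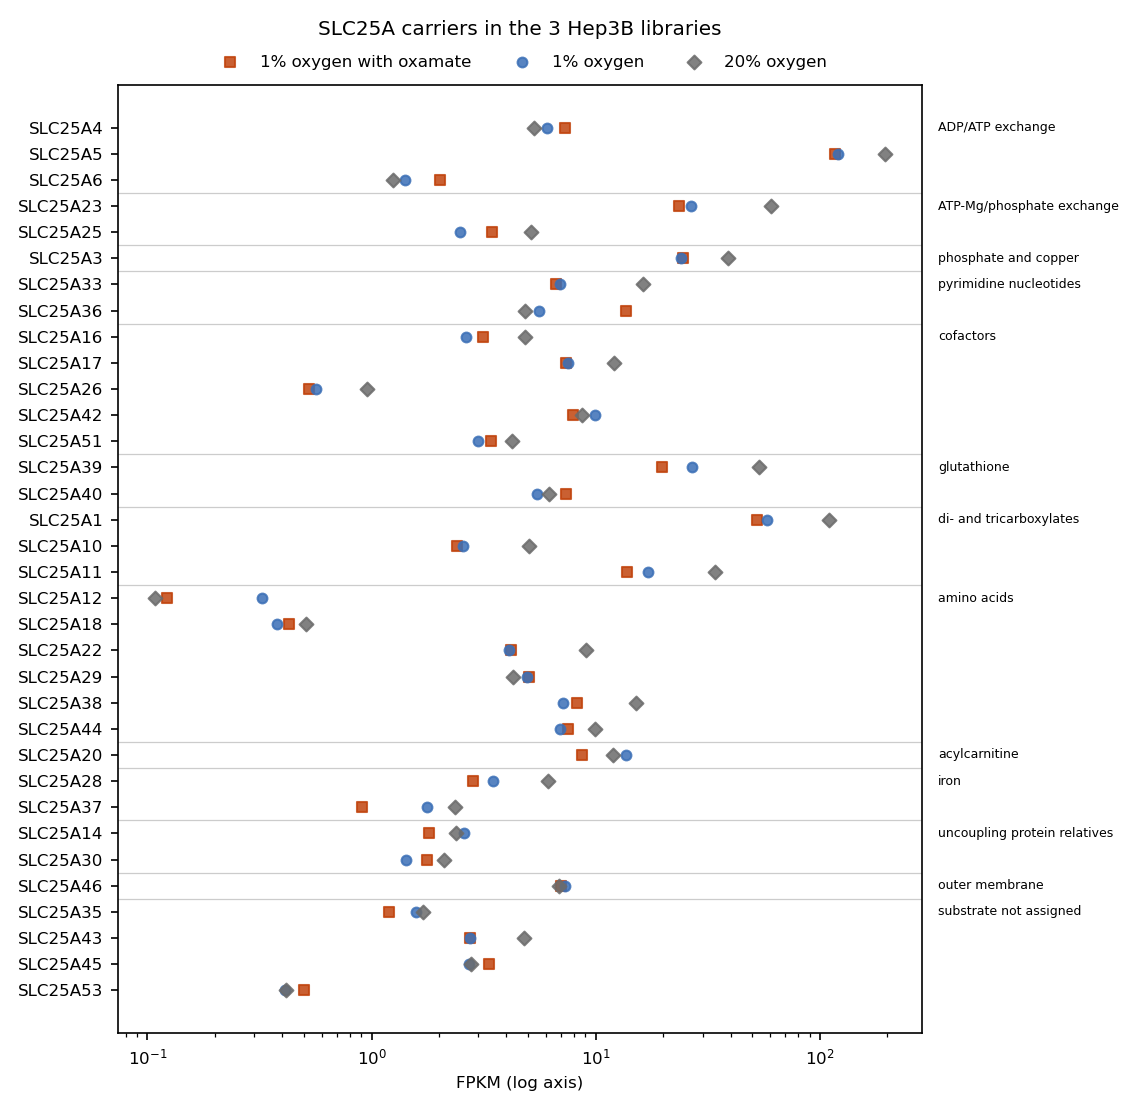
FPKM (log axis) of 34 of the 35 measured SLC25A genes, grouped by substrate class, in oxamate-treated hypoxia (squares), hypoxia (circles) and normoxia (diamonds), with 1 library per condition and no error bars. SLC25A5 lies at 117, 121 and 196 FPKM in that order, and SLC25A36, with its highest point in the oxamate-treated library, at 13.6, 5.58 and 4.82 FPKM.

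In hypoxia against normoxia, 5 of the 35 measured carriers were at least 2-fold lower (SLC25A22, SLC25A23, SLC25A25, SLC25A33 and SLC25A38) and 1 was at least 2-fold higher (SLC25A12), while 29 were neither. Over all 13555 measured genes the shares were 8.07% lower and 10.8% higher. At a 1.5-fold ratio 17 of the 35 carriers were lower and 1 higher, against 21.9% lower and 18.7% higher over all genes. The median log2 ratio of the carriers was -0.55, against -0.11 for all measured genes and -0.16 for the protein-coding ones, and 26 of the 35 carriers (74.3%) had a ratio below 1, against 56.7% of all genes. Scaling by total fragments moved the median of all genes to 0.04 and the carrier median to -0.40, and turned the genome-wide split of 1468 higher and 1094 lower into 1775 and 751, with SLC25A23 and SLC25A33 the 2 carriers still at least 2-fold lower. Ratios varied with exon length in this comparison: over 20 bins of genes the median log2 ratio was -0.04 in the shortest bin (median 796 bases), -0.38 at 2572 bases, the lowest, and 0.23 at 18499 bases, the highest. The measured carriers had a median exon length of 4666 bases, against 5095 for measured genes. With that trend removed, which sets the median gene to 0 and gives 1674 genes higher and 759 lower, the carrier median was -0.47 and 0 carriers were at least 2-fold lower, with log2 values from -0.99 for SLC25A23 to -0.69 for SLC25A38 among the 5.

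With oxamate in hypoxia, against hypoxia alone, 33 of the 35 measured carriers stayed within 2-fold. SLC25A36 was the 1 carrier that was higher and SLC25A12 the 1 that was lower, while over all 13739 measured genes 5.92% were higher by that rule and 5.07% lower. At a 1.5-fold ratio 1 carrier was higher and 3 were lower (SLC25A12, SLC25A20 and SLC25A37), against 13.7% higher and 13.8% lower over all genes. The median log2 ratio was close to 0 (-0.00) for the carriers and -0.01 for all genes. Between oxamate-treated hypoxia and normoxia, a comparison that shares a library with each of the others, 1 of 34 measured carriers was at least 2-fold higher (SLC25A36) and 9 were lower (SLC25A1, SLC25A10, SLC25A11, SLC25A22, SLC25A23, SLC25A28, SLC25A33, SLC25A37 and SLC25A39). Over all 13598 genes measured there, 15.4% were higher and 15.3% lower. At 1.5-fold 2 carriers were higher and 16 lower, against 24.3% and 28.7% of all genes, and the carrier median was -0.56.

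**Figure D2:**
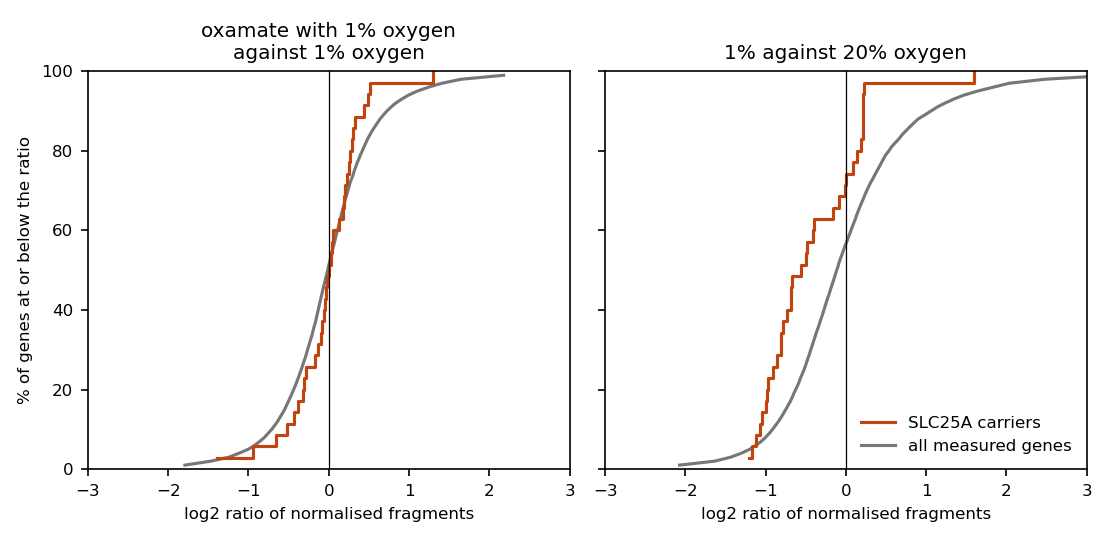
Cumulative share of genes (percent, vertical axis) at or below a log2 ratio of normalised fragments (horizontal axis) for the measured SLC25A carriers (orange steps) and all measured genes (grey), in oxamate-treated hypoxia against hypoxia (left) and hypoxia against normoxia (right). In the left panel the medians are close (-0.00 for carriers and -0.01 for all genes) and the carriers spread less. There 1 of 35 carriers is at least 1.5-fold higher and 3 lower, against 13.7% and 13.8% of all genes. In the right panel the carrier line lies left of that of all genes over most of its range, with medians of -0.55 and -0.11.

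**Figure D3:**
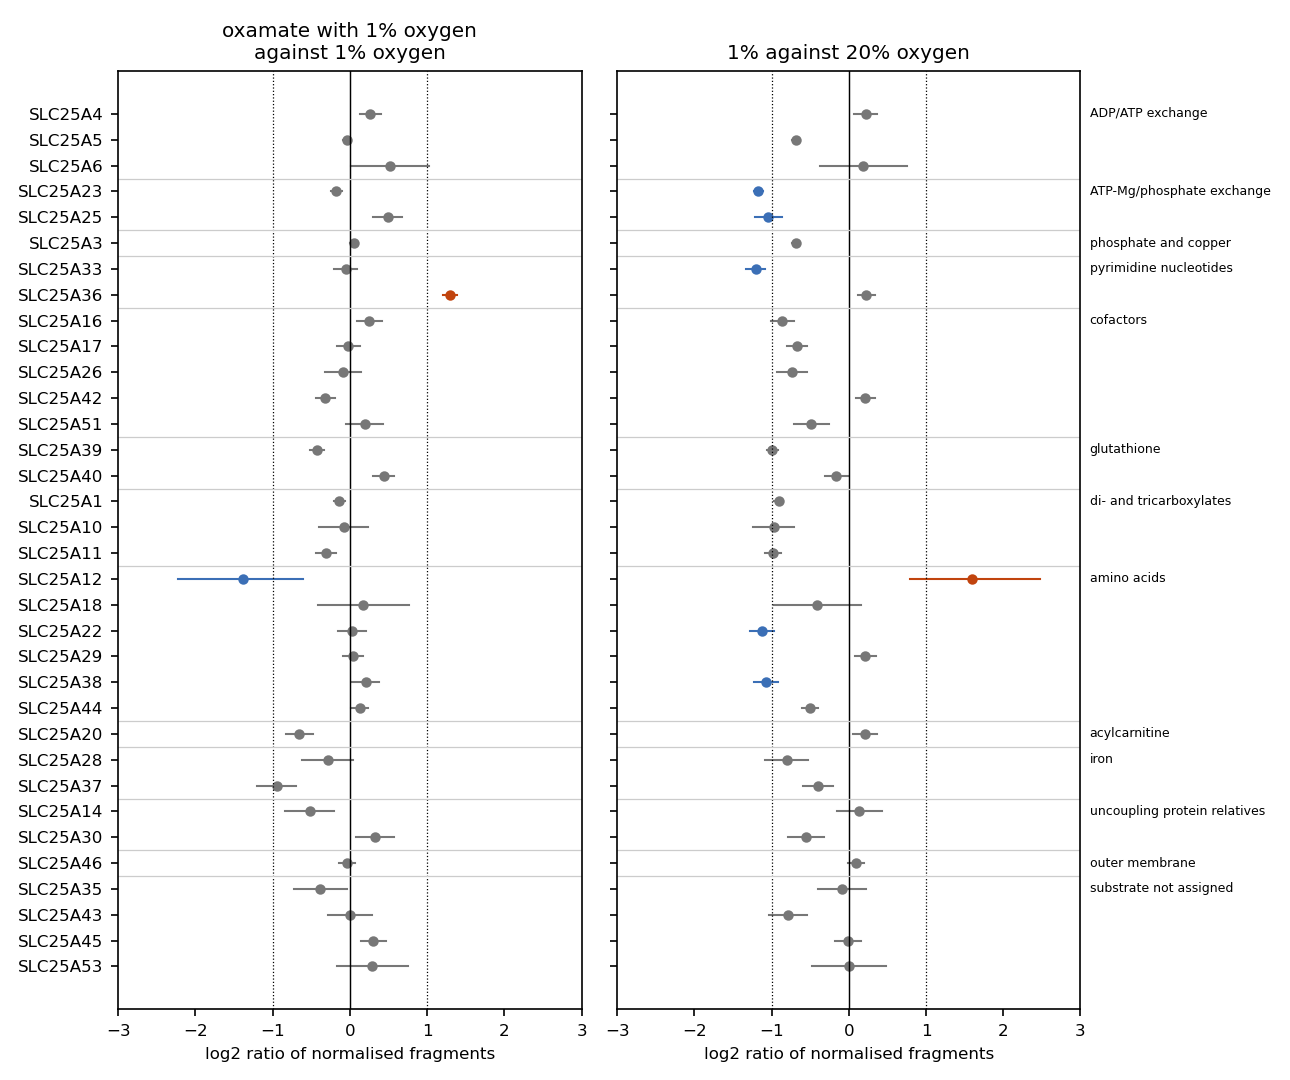
Log2 ratio of normalised fragments (dots) with 95% counting intervals (lines) for 34 measured SLC25A genes by substrate class, for oxamate-treated hypoxia against hypoxia (left) and hypoxia against normoxia (right). Dotted lines mark 2-fold, and genes past it are orange where higher and blue where lower: SLC25A36 with oxamate (2.46-fold higher) and SLC25A12 in hypoxia on the higher side, SLC25A12 with oxamate and 5 carriers in hypoxia on the lower side.

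The pyrimidine nucleotide carriers differed from each other in both steps. SLC25A33 and SLC25A36 both exchange pyrimidine nucleotides across the inner membrane and so supply the precursors of mitochondrial RNA and DNA. SLC25A36 (ENSG00000114120_14; chromosome 3, 140941830 to 140980995, plus strand) had 3561 fragments (142 CPM, 13.6 FPKM) in oxamate-treated hypoxia, 1604 fragments (58.0 CPM, 5.58 FPKM) in hypoxia and 1281 fragments (49.5 CPM, 4.82 FPKM) in normoxia. The oxamate-treated library stood well above the other libraries: the gene was 2.46-fold higher (2.31 to 2.61) than in hypoxia and 2.87-fold higher (2.70 to 3.07) than in normoxia, and it passed the 2-fold rule against hypoxia under every alternative tried. Hypoxia alone was 1.17-fold higher (1.09 to 1.26) than normoxia. SLC25A33 (ENSG00000171612_7; chromosome 1, 9539465 to 9585173, plus strand) had 650 fragments (26.0 CPM, 6.65 FPKM) in oxamate-treated hypoxia, 748 fragments (27.0 CPM, 6.96 FPKM) in hypoxia and 1613 fragments (62.4 CPM, 16.2 FPKM) in normoxia. Here the normoxic library stood above both others, which lay close together: the gene was 2.31-fold lower (2.11 to 2.52) in hypoxia than in normoxia, and its oxamate-treated and hypoxic values differed by 1.04-fold, with an interval of 0.935 to 1.16 around that ratio. The order of the pair in FPKM differed between libraries. SLC25A36 was 2.05 times as abundant as SLC25A33 in oxamate-treated hypoxia, 0.802 times in hypoxia and 0.297 times in normoxia. Of 4 measured enzymes of mitochondrial nucleotide supply or use, among them the mitochondrial RNA polymerase POLRMT, 0 passed 2-fold in hypoxia and 1 was lower with oxamate. It was NME4, a nucleoside diphosphate kinase, at 2.02-fold lower (1.87 to 2.19) than in hypoxia. Over all measured genes 8.07% were lower and 10.8% higher in hypoxia, and 5.07% lower and 5.92% higher with oxamate. The exons of both carriers overlapped no other annotated gene. The summed normalised fragments of the pair were 1.98-fold higher (1.88 to 2.08) with oxamate than in hypoxia, through SLC25A36 and not SLC25A33. That sum weights SLC25A36 more, whose exon length is 10339 bases, against 3865 for SLC25A33. In FPKM the pair summed to 20.3 in oxamate-treated hypoxia, 12.5 in hypoxia and 21.0 in normoxia.

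The start regions of this pair are shown because the genes share a substrate and differed in both steps, and those of SLC25A4 and SLC25A5, whose balance also shifted, stand beside them. Each is the RefSeq window on GRCh38.p14 from 250 bases before to 50 after the annotated start, plus strand, 5′ to 3′: chr3:140941586-140941885, chr1:9539215-9539514, chr4:185143016-185143315 and chrX:119468194-119468493. Capitals mark ACGTG or GCGTG, the core recognised by hypoxia-inducible factors, and the E-box CACGTG, which contains ACGTG, on either strand (so CACGC is GCGTG read on the minus strand).
SLC25A36: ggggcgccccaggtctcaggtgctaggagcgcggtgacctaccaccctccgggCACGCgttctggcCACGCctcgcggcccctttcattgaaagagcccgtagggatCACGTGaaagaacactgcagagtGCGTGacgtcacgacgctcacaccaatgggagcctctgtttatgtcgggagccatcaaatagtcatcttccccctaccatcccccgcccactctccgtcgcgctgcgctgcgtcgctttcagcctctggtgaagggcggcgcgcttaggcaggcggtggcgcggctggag
SLC25A33: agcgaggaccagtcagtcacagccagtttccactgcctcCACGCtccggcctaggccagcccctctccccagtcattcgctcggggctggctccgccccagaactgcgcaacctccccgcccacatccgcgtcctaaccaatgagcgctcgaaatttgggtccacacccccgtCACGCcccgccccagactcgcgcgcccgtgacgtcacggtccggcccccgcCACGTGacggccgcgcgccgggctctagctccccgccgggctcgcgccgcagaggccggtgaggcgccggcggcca
SLC25A4: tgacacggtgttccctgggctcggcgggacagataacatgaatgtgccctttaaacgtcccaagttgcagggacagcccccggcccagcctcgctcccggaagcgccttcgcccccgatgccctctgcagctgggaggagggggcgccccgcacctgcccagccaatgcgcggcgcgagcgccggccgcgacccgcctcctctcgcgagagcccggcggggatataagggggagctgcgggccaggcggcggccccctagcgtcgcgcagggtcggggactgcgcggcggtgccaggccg
SLC25A5: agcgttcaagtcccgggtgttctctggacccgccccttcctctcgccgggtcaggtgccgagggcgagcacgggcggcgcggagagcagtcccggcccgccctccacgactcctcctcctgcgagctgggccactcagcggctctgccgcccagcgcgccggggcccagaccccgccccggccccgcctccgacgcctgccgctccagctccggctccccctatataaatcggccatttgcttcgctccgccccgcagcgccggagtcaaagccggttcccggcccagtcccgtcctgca
A CACGTG begins 143 bases before the start in SLC25A36 and 26 bases before it in SLC25A33, so both hold the same hexamer, at different distances. SLC25A36 also holds GCGTG at 197, 184 and 120 bases before the start, and SLC25A33 at 211 and 77. SLC25A4 and SLC25A5 hold none of these letters in this window.

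Over the family, RefSeq gave 49 such windows for 38 of the 46 members. ACGTG or GCGTG was present on at least 1 strand in 40 of the 49 (81.6%), against 60.5% of 14978 windows of measured genes and 48.4% of all 35116 windows. CACGTG was present in 8 (16.3%), against 9.31% and 7.26%. The family windows were also richer in G and C, with a median of 65.7%, against 58.7% for all windows. The 39 windows of measured members held ACGTG or GCGTG in 82.1% and CACGTG in 17.9%. Their G and C median was 67%, against 64.7% for windows of measured genes. A match describes letters and not binding, and several members contribute more than 1 window.

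The ADP/ATP carriers export ATP from the matrix in exchange for ADP and were the most abundant class, at 127 FPKM in oxamate-treated hypoxia, 129 FPKM in hypoxia and 203 FPKM in normoxia. SLC25A5, the isoform of proliferating cells, had 4609 fragments (184 CPM, 117 FPKM) in oxamate-treated hypoxia, 5234 fragments (189 CPM, 121 FPKM) in hypoxia and 7848 fragments (303 CPM, 196 FPKM) in normoxia. SLC25A4, the isoform of heart and skeletal muscle, had 885 fragments (35.4 CPM, 7.26 FPKM) in oxamate-treated hypoxia, 814 fragments (29.4 CPM, 6.07 FPKM) in hypoxia and 655 fragments (25.3 CPM, 5.28 FPKM) in normoxia. The isoforms differed in direction: in hypoxia SLC25A5 was 1.60-fold lower (1.55 to 1.66) and SLC25A4 1.16-fold higher (1.05 to 1.29) than in normoxia. With oxamate SLC25A4 was 1.20-fold higher (1.09 to 1.32) than in hypoxia, and SLC25A5 differed by 1.03-fold. In FPKM SLC25A4 stayed at 0.0620, 0.0502 and 0.0269 times the level of SLC25A5 in oxamate-treated hypoxia, hypoxia and normoxia. SLC25A6 was listed at 79, 61 and 50 fragments and 2.01, 1.41 and 1.25 FPKM in oxamate-treated hypoxia, hypoxia and normoxia, a value that is uncertain because the gene has identical copies in the pseudoautosomal regions of X and Y, whose listings were summed. Of 7 measured partners in adenylate handling, 1 was at least 2-fold higher in hypoxia than in normoxia and 1 lower, against 10.8% and 8.07% of all measured genes. AK4, a mitochondrial adenylate kinase, was 2.64-fold higher (2.52 to 2.78), and PPIF, the cyclophilin of the permeability transition pore, was 2.42-fold lower (2.29 to 2.57). CKMT2, a mitochondrial creatine kinase, was 3.39-fold higher (2.69 to 4.30) with oxamate than in hypoxia, at 4.39, 1.304 and 0.921 FPKM in oxamate-treated hypoxia, hypoxia and normoxia.

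The ATP-Mg/phosphate carriers adjust the adenine nucleotide content of the matrix, and most of them are switched on by calcium. Both measured members were at least 2-fold lower in hypoxia than in normoxia, against 8.07% of all measured genes. The class sum was 2.22-fold lower (2.14 to 2.31), the most extreme of the 13 class sums in that comparison. SLC25A23 (ENSG00000125648_15; chromosome 19, 6436079 to 6465203, minus strand) had 2897 fragments (116 CPM, 23.5 FPKM) in oxamate-treated hypoxia, 3623 fragments (131 CPM, 26.7 FPKM) in hypoxia and 7641 fragments (295 CPM, 60.9 FPKM) in normoxia. It was 2.26-fold lower (2.17 to 2.35) in hypoxia than in normoxia and 2.55-fold lower (2.44 to 2.66) in oxamate-treated hypoxia than in normoxia. SLC25A25 (ENSG00000148339_13; chromosome 9, 128068201 to 128109245, plus strand) had 518 fragments (20.7 CPM, 3.46 FPKM) in oxamate-treated hypoxia, 408 fragments (14.7 CPM, 2.48 FPKM) in hypoxia and 785 fragments (30.3 CPM, 5.15 FPKM) in normoxia. It was 2.06-fold lower (1.82 to 2.33) in hypoxia than in normoxia, just inside the 2-fold rule, and 1.40-fold higher (1.23 to 1.60) with oxamate than in hypoxia. Of the exon bases of SLC25A25, 16.2% are shared with other genes, among them SLC25A25-AS1, an antisense transcript with 560, 624 and 387 fragments in oxamate-treated hypoxia, hypoxia and normoxia. Without a statement on strand, reads of the gene and its antisense partner cannot be told apart there. SLC25A24 was listed at 0 in every library, and SLC25A41, a short relative without the calcium-binding part, had at most 39 fragments.

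SLC25A3 carries phosphate for ATP synthesis and copper for cytochrome oxidase, and was the third most abundant carrier in oxamate-treated hypoxia. It had 5529 fragments (221 CPM, 24.6 FPKM) in oxamate-treated hypoxia, 5915 fragments (214 CPM, 23.9 FPKM) in hypoxia and 8879 fragments (343 CPM, 38.8 FPKM) in normoxia. The normoxic library was the highest, and the gene was 1.61-fold lower (1.55 to 1.66) in hypoxia than in normoxia, close to the value of SLC25A5. Oxamate-treated hypoxia and hypoxia differed by 1.03-fold (0.997 to 1.07).

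The di- and tricarboxylate carriers link the citric acid cycle with the cytosol, and all 3 measured members were lower in hypoxia than in normoxia by similar factors, just short of 2-fold. Their log2 ratios lay between -0.98 and -0.91. Exon lengths were 1999 bases for SLC25A1, 2471 for SLC25A11 and 2621 for SLC25A10. Genes near these lengths also had lower medians in that comparison, at log2 -0.33 for 2141 bases and -0.38 for 2572 bases. SLC25A1 (ENSG00000100075_10; chromosome 22, 19175581 to 19178739, minus strand), which exports citrate for fatty acid and sterol synthesis, had 2663 fragments (106 CPM, 52.7 FPKM) in oxamate-treated hypoxia, 3237 fragments (117 CPM, 58.2 FPKM) in hypoxia and 5683 fragments (219.7 CPM, 111 FPKM) in normoxia. It was 1.88-fold lower (1.80 to 1.96) in hypoxia than in normoxia. SLC25A11 (ENSG00000108528_14; chromosome 17, 4937130 to 4940053, minus strand), which exchanges oxoglutarate for malate in the malate-aspartate shuttle, had 858 fragments (34.3 CPM, 13.7 FPKM) in oxamate-treated hypoxia, 1179 fragments (42.6 CPM, 17.2 FPKM) in hypoxia and 2171 fragments (83.9 CPM, 34.2 FPKM) in normoxia. It was 1.97-fold lower (1.83 to 2.12) in hypoxia than in normoxia and 1.24-fold lower (1.14 to 1.36) with oxamate than in hypoxia. SLC25A10 (ENSG00000183048_12; chromosome 17, 81712236 to 81721016, plus strand), which exchanges dicarboxylates for phosphate, had 159 fragments (6.36 CPM, 2.40 FPKM) in oxamate-treated hypoxia, 186 fragments (6.72 CPM, 2.55 FPKM) in hypoxia and 341 fragments (13.2 CPM, 5.06 FPKM) in normoxia, and its exons overlapped another annotated gene over 46.6% of their bases. It was 1.96-fold lower (1.64 to 2.36) in hypoxia than in normoxia. Against normoxia the oxamate-treated library was 2.06-fold lower (1.97 to 2.16) for SLC25A1, 2.45-fold lower (2.26 to 2.65) for SLC25A11 and 2.07-fold lower (1.71 to 2.52) for SLC25A10. With the length trend removed none of the 3 reached 2-fold there (log2 -0.73, -0.97 and -0.73 for SLC25A1, SLC25A11 and SLC25A10). SLC25A1 and SLC25A10 also fell short under total-fragment scaling (log2 -0.95 and -0.96), and their intervals reached below 2-fold. As a class they summed to 68.8 FPKM in oxamate-treated hypoxia, 78.0 FPKM in hypoxia and 149.7 FPKM in normoxia.

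Most enzymes that make or use these substrates had ratios below 1 in hypoxia against normoxia. That held for 6 of 7 of citrate and dicarboxylates and 4 of 4 of the malate-aspartate shuttle, against 56.7% of all measured genes. The 1 with a ratio above 1 was PC, at 1.42-fold higher (1.37 to 1.48). Of 7 measured enzymes of citrate and dicarboxylates, 2 were at least 2-fold lower in hypoxia than in normoxia and 0 higher, against 8.07% and 10.8% of all measured genes. The 2 were the mitochondrial malic enzyme ME2 at 3.08-fold lower (2.76 to 3.45) and PCK2, the mitochondrial phosphoenolpyruvate carboxykinase, at 2.53-fold lower (2.32 to 2.76). ACLY, which cleaves the exported citrate, was 1.61-fold lower (1.57 to 1.64). Of the 4 enzymes of the malate-aspartate shuttle, the mitochondrial aspartate aminotransferase GOT2 was 2.45-fold lower (2.34 to 2.58) and the others stayed within 2-fold. With oxamate 0 of the 4 passed 2-fold against hypoxia, where 5.92% of all measured genes were higher and 5.07% lower.

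The amino acid carriers held the 1 member that was higher in hypoxia. SLC25A12 (ENSG00000115840_14; chromosome 2, 171783405 to 171999859, minus strand), an aspartate/glutamate carrier of the malate-aspartate shuttle, had 19 fragments (0.760 CPM, 0.123 FPKM) in oxamate-treated hypoxia, 55 fragments (1.99 CPM, 0.323 FPKM) in hypoxia and 17 fragments (0.657 CPM, 0.108 FPKM) in normoxia. The hypoxic library stood above both others, and the gene was 3.02-fold higher (1.73 to 5.56) in hypoxia than in normoxia and 2.62-fold lower (1.53 to 4.67) with oxamate than in hypoxia. These ratios rest on few fragments at a level near the bottom of the family, they did not pass when the whole interval had to exceed 2-fold, and the hypoxia library is shared by both comparisons. SLC25A22 (ENSG00000177542_11; chromosome 11, 790475 to 798281, minus strand), a glutamate carrier, had 485 fragments (19.4 CPM, 4.17 FPKM) in oxamate-treated hypoxia, 527 fragments (19.0 CPM, 4.12 FPKM) in hypoxia and 1075 fragments (41.6 CPM, 9.09 FPKM) in normoxia. It was 2.18-fold lower (1.96 to 2.43) in hypoxia than in normoxia. SLC25A38 (ENSG00000144659_13; chromosome 3, 39383370 to 39397351, plus strand), which imports glycine for heme synthesis, had 553 fragments (22.1 CPM, 8.21 FPKM) in oxamate-treated hypoxia, 530 fragments (19.2 CPM, 7.16 FPKM) in hypoxia and 1041 fragments (40.2 CPM, 15.2 FPKM) in normoxia. It was 2.10-fold lower (1.89 to 2.34) in hypoxia than in normoxia and 1.15-fold higher (1.02 to 1.303) with oxamate than in hypoxia.

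The remaining amino acid carriers stayed within 2-fold in all comparisons. SLC25A44, which imports branched-chain amino acids, had 1387 fragments (55.5 CPM, 7.52 FPKM) in oxamate-treated hypoxia, 1405 fragments (50.8 CPM, 6.93 FPKM) in hypoxia and 1856 fragments (71.8 CPM, 9.89 FPKM) in normoxia, and was 1.41-fold lower (1.32 to 1.52) in hypoxia than in normoxia. SLC25A29, a carrier of basic amino acids, stood at 5.02, 4.92 and 4.29 FPKM in oxamate-treated hypoxia, hypoxia and normoxia, and was 1.16-fold higher (1.05 to 1.27) in hypoxia than in normoxia. SLC25A18, a second glutamate carrier, stood at 51, 50 and 62 fragments in the same libraries, too few to separate them (1.33-fold lower in hypoxia than in normoxia, interval 0.899 to 1.97). SLC25A2, an ornithine carrier, had at most 4 fragments.

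The glutathione carriers SLC25A39 and SLC25A40 bring glutathione into the matrix. SLC25A39 (ENSG00000013306_16; chromosome 17, 44319625 to 44324870, minus strand) had 1765 fragments (70.6 CPM, 19.8 FPKM) in oxamate-treated hypoxia, 2626 fragments (94.9 CPM, 26.8 FPKM) in hypoxia and 4875 fragments (188 CPM, 53.7 FPKM) in normoxia. The normoxic library was the highest and the oxamate-treated one the lowest: the gene was 1.99-fold lower (1.89 to 2.08) in hypoxia than in normoxia, just outside the 2-fold rule (it passed with scaling by the median of ratios, at log2 -1.005, and with FPKM and a pseudocount of 0.1, at log2 -1.002), 1.34-fold lower (1.27 to 1.43) with oxamate than in hypoxia, and 2.67-fold lower (2.53 to 2.82) in oxamate-treated hypoxia than in normoxia. SLC25A40 had 944 fragments (37.7 CPM, 7.34 FPKM) in oxamate-treated hypoxia, 771 fragments (27.9 CPM, 5.45 FPKM) in hypoxia and 806 fragments (31.2 CPM, 6.16 FPKM) in normoxia. Its highest value was in the oxamate-treated library, 1.35-fold higher (1.23 to 1.49) than in hypoxia, while hypoxia and normoxia differed by 1.12-fold. Of 6 glutathione enzymes measured, 1 was at least 2-fold lower in hypoxia than in normoxia and 0 higher, against 8.07% and 10.8% of all measured genes. It was GCLC, the catalytic subunit of glutamate-cysteine ligase, at 2.08-fold lower (1.91 to 2.26). Its modifier subunit GCLM stood at 1.995-fold lower (1.78 to 2.23). With oxamate 0 of the 6 passed 2-fold against hypoxia, where 5.92% of all measured genes were higher and 5.07% lower.

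Most cofactor carriers had lower values in hypoxia than in normoxia, and 0 of the 6 measured members passed 2-fold. By the 1.5-fold rule, 4 of these 6 fell on the lower side and 0 on the higher side. The lower and higher shares over the genome were 21.9% and 18.7% by that rule, and 8.07% and 10.8% by 2-fold. SLC25A17, which carries coenzyme A, FAD and NAD into peroxisomes, had 741 fragments (29.6 CPM, 7.35 FPKM) in oxamate-treated hypoxia, 831 fragments (30.03 CPM, 7.49 FPKM) in hypoxia and 1236 fragments (47.8 CPM, 12.0 FPKM) in normoxia. SLC25A42, which exchanges coenzyme A for adenine nucleotides, had 937 fragments (37.5 CPM, 7.94 FPKM) in oxamate-treated hypoxia, 1295 fragments (46.8 CPM, 9.98 FPKM) in hypoxia and 1043 fragments (40.3 CPM, 8.69 FPKM) in normoxia. They differed in direction, with SLC25A17 1.59-fold lower (1.46 to 1.74) and SLC25A42 1.16-fold higher (1.07 to 1.26) in hypoxia than in normoxia. SLC25A16, a relative linked to coenzyme A, was 1.82-fold lower (1.64 to 2.02) in hypoxia, at 3.13, 2.65 and 4.86 FPKM in oxamate-treated hypoxia, hypoxia and normoxia. The S-adenosylmethionine carrier SLC25A26 was 1.67-fold lower (1.45 to 1.91), at 0.528, 0.566 and 0.953 FPKM in these libraries. The NAD carrier SLC25A51 was 1.40-fold lower (1.19 to 1.64), at 3.40, 3.00 and 4.23 FPKM. The carriers named here all stayed within 1.25-fold between oxamate-treated hypoxia and hypoxia. Of 11 measured enzymes of the same cofactors, 2 were at least 2-fold higher with oxamate than in hypoxia and 1 lower, against 5.92% and 5.07% of all measured genes. NADK2, the mitochondrial NAD kinase, was 2.31-fold higher (2.23 to 2.40), and MTHFD2, of mitochondrial folate metabolism, was 2.02-fold higher (1.89 to 2.16), while NMNAT3, a nucleotide adenylyltransferase of NAD synthesis, was 2.66-fold lower (1.77 to 4.07). In hypoxia against normoxia MTHFD2, SHMT2 and NMNAT3 were lower, at 2.75-fold lower, 2.12-fold lower and 4.51-fold lower, and 0 of the 11 were higher.

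SLC25A20 brings acylcarnitines into the matrix for fatty acid oxidation and had 416 fragments (16.6 CPM, 8.67 FPKM) in oxamate-treated hypoxia, 724 fragments (26.2 CPM, 13.7 FPKM) in hypoxia and 586 fragments (22.7 CPM, 12.0 FPKM) in normoxia. The oxamate-treated library was the lowest, 1.57-fold lower (1.39 to 1.78) than hypoxia, and hypoxia was 1.15-fold higher (1.03 to 1.29) than normoxia. Among 5 measured partners of the carnitine shuttle, 1 passed 2-fold in hypoxia, where 10.8% of all measured genes were higher and 8.07% lower. It was CPT1B at 2.15-fold higher (1.35 to 3.51), a gene whose exons overlap other genes over 66.4% of their bases. With oxamate 4 of the 5 had ratios below 1 against hypoxia and 0 passed 2-fold. Over all measured genes 51.1% had ratios below 1 there, 5.92% were at least 2-fold higher and 5.07% lower. CPT1A, the liver carnitine palmitoyltransferase, stood at 1.49-fold lower (1.40 to 1.60) with oxamate, and SLC22A5, the carnitine transporter of the plasma membrane, at 1.61-fold lower (1.27 to 2.05).

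The iron carriers SLC25A37 and SLC25A28 (mitoferrins) supply iron for heme and iron-sulfur clusters. SLC25A37 had 184 fragments (7.36 CPM, 0.910 FPKM) in oxamate-treated hypoxia, 393 fragments (14.2 CPM, 1.77 FPKM) in hypoxia and 485 fragments (18.8 CPM, 2.36 FPKM) in normoxia. Its values ran in 1 order, lowest in oxamate-treated hypoxia: it was 1.93-fold lower (1.62 to 2.31) with oxamate than in hypoxia, which scaling by total fragments took past the 2-fold rule (log2 -1.01), and 1.32-fold lower (1.15 to 1.51) in hypoxia than in normoxia. SLC25A28 (ENSG00000155287_11; chromosome 10, 99610522 to 99620609, minus strand) had 131 fragments (5.24 CPM, 2.83 FPKM) in oxamate-treated hypoxia, 177 fragments (6.40 CPM, 3.48 FPKM) in hypoxia and 289 fragments (11.2 CPM, 6.14 FPKM) in normoxia. It was 1.75-fold lower (1.44 to 2.12) in hypoxia than in normoxia and 2.13-fold lower (1.73 to 2.64) in oxamate-treated hypoxia than in normoxia, a value that fell short of 2-fold with the length trend removed (log2 -0.77). In normalised fragments, which weight the longer SLC25A37 more, the iron class summed to 1.64-fold lower (1.42 to 1.88) with oxamate than in hypoxia. In FPKM it summed to 3.74 in oxamate-treated hypoxia, 5.25 in hypoxia and 8.50 in normoxia. Of 8 measured enzymes of heme and iron-sulfur cluster synthesis, 0 passed 2-fold in either step, and 5 were at least 1.5-fold lower in hypoxia than in normoxia. Over all measured genes 21.9% were lower by 1.5-fold in hypoxia. At 2-fold 8.07% were lower and 10.8% higher in hypoxia, and 5.07% lower and 5.92% higher with oxamate.

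The relatives of the uncoupling proteins and the other members stayed within 2-fold in every comparison. SLC25A14 had 137 fragments (5.48 CPM, 1.80 FPKM) in oxamate-treated hypoxia, 217 fragments (7.84 CPM, 2.59 FPKM) in hypoxia and 185 fragments (7.15 CPM, 2.39 FPKM) in normoxia, and was 1.43-fold lower (1.15 to 1.79) with oxamate than in hypoxia. SLC25A30 had 303 fragments (12.1 CPM, 1.76 FPKM) in oxamate-treated hypoxia, 268 fragments (9.68 CPM, 1.42 FPKM) in hypoxia and 368 fragments (14.2 CPM, 2.11 FPKM) in normoxia, and was 1.47-fold lower (1.25 to 1.73) in hypoxia than in normoxia. SLC25A46, an outer membrane protein of mitochondrial dynamics, had 1471 fragments (58.8 CPM, 7.03 FPKM) in oxamate-treated hypoxia, 1674 fragments (60.5 CPM, 7.28 FPKM) in hypoxia and 1467 fragments (56.7 CPM, 6.90 FPKM) in normoxia, and all pairs of libraries lay within 1.07-fold of each other. Among members without an assigned substrate here, SLC25A43 had 197 fragments (7.88 CPM, 2.74 FPKM) in oxamate-treated hypoxia, 218 fragments (7.88 CPM, 2.76 FPKM) in hypoxia and 351 fragments (13.6 CPM, 4.81 FPKM) in normoxia, and was 1.72-fold lower (1.45 to 2.05) in hypoxia than in normoxia. SLC25A45 had 666 fragments (26.6 CPM, 3.35 FPKM) in oxamate-treated hypoxia, 597 fragments (21.6 CPM, 2.73 FPKM) in hypoxia and 562 fragments (21.7 CPM, 2.78 FPKM) in normoxia, and was 1.23-fold higher (1.10 to 1.38) with oxamate than in hypoxia. SLC25A35 stood at 1.20, 1.57 and 1.69 FPKM in oxamate-treated hypoxia, hypoxia and normoxia, with overlap of other genes over 33.2% of its exons, and SLC25A53 at 0.498, 0.411 and 0.416 FPKM.

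**Figure D4:**
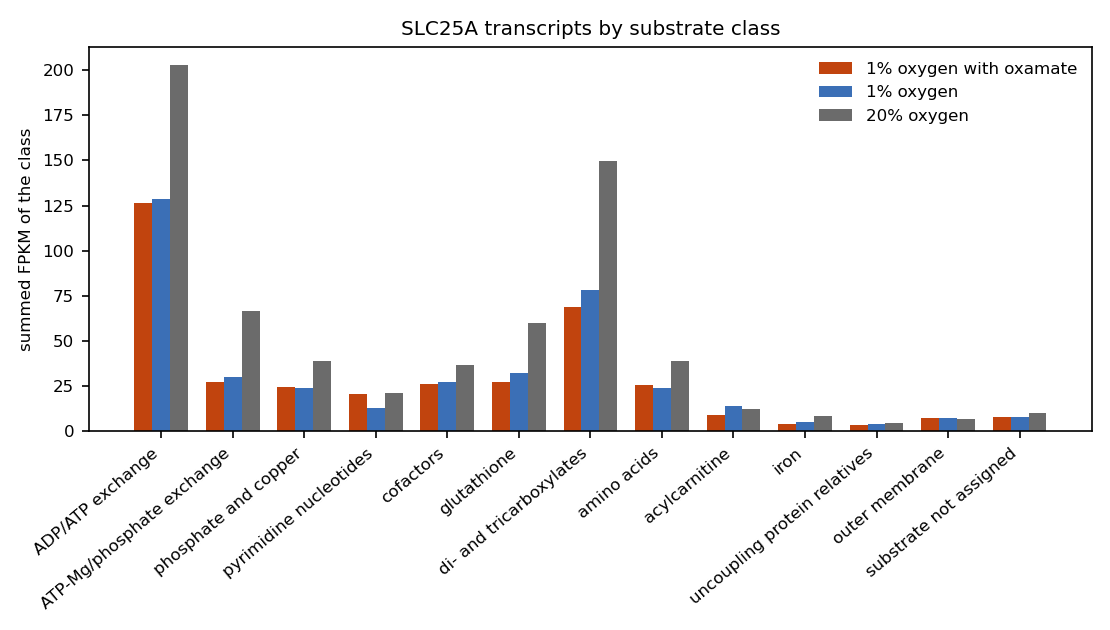
Summed FPKM of the SLC25A members in each substrate class (bars from 0, 1 library per condition, no error bars) in oxamate-treated hypoxia, hypoxia and normoxia. ADP/ATP exchange (127, 129 and 203 FPKM) and di- and tricarboxylates (68.8, 78.0 and 149.7 FPKM) hold the tallest bars, and the pyrimidine nucleotide class is the one in which the oxamate-treated bar (20.3 FPKM) stands furthest above the hypoxic one (12.5 FPKM).

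Carriers with the same or a similar substrate did not keep a fixed balance. The share of 1 gene in the fragments of its pair does not depend on the scaling between libraries, and 6 such pairs, chosen after their values were seen, are given with 95% Clopper-Pearson intervals. It does depend on exon length, so it is not a share of levels. In FPKM SLC25A36 held 67.2%, 44.5% and 22.9% of its pair in oxamate-treated hypoxia, hypoxia and normoxia. SLC25A37 held 24.3%, 33.7% and 27.7% in the same order, so SLC25A28 had the higher FPKM in each library. SLC25A36 held 84.6% (83.4 to 85.6) in oxamate-treated hypoxia, 68.2% (66.3 to 70.1) in hypoxia and 44.3% (42.4 to 46.1) in normoxia of the fragments of SLC25A36 and SLC25A33. SLC25A40 held 34.8% (33.1 to 36.7) in oxamate-treated hypoxia, 22.7% (21.3 to 24.1) in hypoxia and 14.2% (13.3 to 15.1) in normoxia of those of SLC25A40 and SLC25A39. SLC25A4 held 16.1% (15.1 to 17.1) in oxamate-treated hypoxia, 13.5% (12.6 to 14.3) in hypoxia and 7.70% (7.15 to 8.29) in normoxia of those of SLC25A4 and SLC25A5. In these 3 pairs the less abundant gene of normoxia took a larger share in hypoxia and a larger one again with oxamate, with no overlap of the intervals. SLC25A25 held 15.2% (14.0 to 16.4) in oxamate-treated hypoxia, 10.1% (9.21 to 11.1) in hypoxia and 9.32% (8.70 to 9.96) in normoxia of those of SLC25A25 and SLC25A23, where only the oxamate-treated library stood apart. SLC25A18 held 9.51% (7.17 to 12.3) in oxamate-treated hypoxia, 8.67% (6.50 to 11.3) in hypoxia and 5.45% (4.21 to 6.94) in normoxia of those of SLC25A18 and SLC25A22, with the interval of hypoxia overlapping both others. In the iron pair the order was another one: SLC25A37 held 58.4% (52.8 to 63.9) in oxamate-treated hypoxia, 68.9% (65.0 to 72.7) in hypoxia and 62.7% (59.1 to 66.1) in normoxia of those of SLC25A37 and SLC25A28, with the intervals of oxamate-treated hypoxia and hypoxia apart and that of normoxia overlapping both.

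As a ratio of ratios, with Woolf intervals, SLC25A36 over SLC25A33 was 2.55 (2.26 to 2.88) in oxamate-treated hypoxia relative to hypoxia and 2.70 (2.41 to 3.03) in hypoxia relative to normoxia. SLC25A40 over SLC25A39 was 1.82 (1.63 to 2.04) and 1.78 (1.59 to 1.98) in these comparisons, and SLC25A4 over SLC25A5 was 1.23 (1.11 to 1.37) and 1.86 (1.67 to 2.08). In each pair the first gene has the greater exon length, and ratios in hypoxia against normoxia varied with exon length. With that trend removed, an alternative added after seeing the data, the values were 2.46 and 2.19 for SLC25A36 over SLC25A33, 1.85 and 1.64 for SLC25A40 over SLC25A39, and 1.25 and 1.68 for SLC25A4 over SLC25A5.

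**Figure D5:**
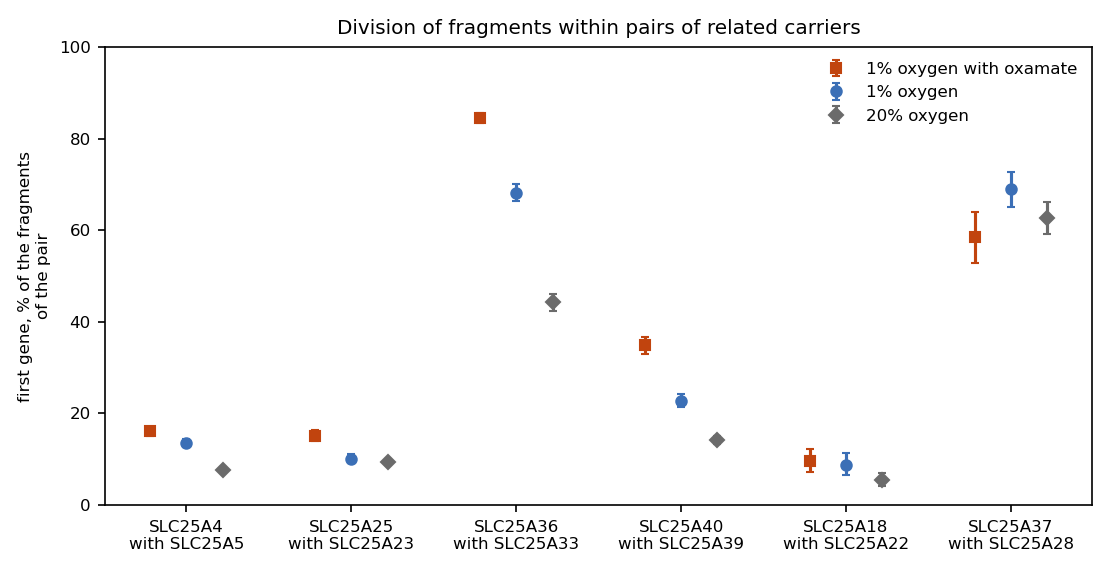
Percent of the fragments of a pair that belong to its first gene (points, with 95% Clopper-Pearson intervals) in oxamate-treated hypoxia, hypoxia and normoxia, for 6 pairs of related carriers. SLC25A36 covers the widest range, at 84.6%, 68.2% and 44.3% in that order, and SLC25A40 goes the same way at 34.8%, 22.7% and 14.2%. Fragments are not divided by exon length here, so the shares are not shares of FPKM.

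The members under 50 fragments in every library support no ratio. SLC25A24 and SLC25A48 were listed at 0 in all 3 libraries, where 3 fragments would correspond to 0.120, 0.108 and 0.116 CPM in oxamate-treated hypoxia, hypoxia and normoxia. SLC25A31, the ADP/ATP carrier of the testis, had at most 3 fragments, the oxodicarboxylate carrier SLC25A21 at most 5, and the brain uncoupling protein relative SLC25A27 at most 7. SLC25A47 and the NAD carrier relative SLC25A52 had at most 1 fragment, SLC25A34 at most 30, and SLC25A41 at most 39. SLC25A32, the mitochondrial folate and FAD carrier, was listed at 13, 14 and 9 fragments, but 80.8% of its exon bases are shared with other annotated genes, so its low value is uncertain. Smaller overlaps touch SLC25A11 (9.14% of exon bases), SLC25A22 (10.8%) and SLC25A5 (15.1%), while the exons of SLC25A1, SLC25A23, SLC25A28, SLC25A38 and SLC25A39 overlap no other annotated gene.

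Most genes of the route by which carriers reach the inner membrane had lower values in hypoxia than in normoxia. Of 15 measured genes of TOM, the small TIM chaperones and TIM22, 4 were at least 2-fold lower than in normoxia and 0 higher, 10 were at least 1.5-fold lower, and the median log2 ratio was -0.76. Over all measured genes 8.07% were lower by 2-fold and 21.9% by 1.5-fold, with a median of -0.11. Several of these import genes are short, such as TIMM10 (777 exon bases), TIMM8B (1166) and TIMM9 (1500). The all-gene median was -0.04 at 796 bases, -0.34 at 1635 and -0.38 at 2572, and length was not allowed for in this list. Exons of TIMM8B, TIMM9 and TIMM13 overlap other genes over 32.3%, 30.5% and 28.9% of their bases. TIMM8A, a small chaperone, was 2.80-fold lower (2.29 to 3.43), TIMM10 2.02-fold lower (1.71 to 2.39), and TOMM40, the channel of the outer membrane, 2.19-fold lower (2.07 to 2.31). TOMM5, with 53 fragments in normoxia and 18.7% of its exon bases shared with other genes, was 3.15-fold lower (1.82 to 5.71). With oxamate 0 of 14 passed 2-fold against hypoxia, and the median was -0.17. Over all measured genes 5.92% were higher and 5.07% lower in that comparison, with a median of -0.01. The porins VDAC1, VDAC2 and VDAC3, which pass small solutes through the outer membrane, were 0 of 3 past 2-fold in either step and all at least 1.5-fold lower in hypoxia than in normoxia, with a median of -0.71.

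Inner membrane transporters outside the family were compared for context. Of 16 measured, 5 were at least 2-fold lower in hypoxia than in normoxia and 1 higher, against 8.07% and 10.8% of all measured genes. With oxamate 0 of the 16 passed 2-fold against hypoxia, where 5.92% of all measured genes were higher and 5.07% lower. In hypoxia against normoxia MPC1 and MPC2, the subunits of the mitochondrial pyruvate carrier, were 3.71-fold lower (3.36 to 4.09) and 2.30-fold lower (2.18 to 2.43). MPC1 stood at 16.5, 12.4 and 46.4 FPKM in oxamate-treated hypoxia, hypoxia and normoxia. Of the sideroflexins, SFXN2 was 2.36-fold lower, SFXN4 2.78-fold lower and SFXN3 2.22-fold higher. ABCB10, a transporter needed for heme synthesis, was 2.09-fold lower (1.89 to 2.31).

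The libraries carried the markers of their label. All 13 hepatoma and hepatocyte genes checked were at 1 CPM or more, and all 6 genes checked as markers of low oxygen were at least 2-fold higher in hypoxia than in normoxia. Among the 13 liver genes, TF was at least 2-fold higher in hypoxia than in normoxia. ALB, APOB, APOA1, TTR and FGB were at least 2-fold lower. Over all measured genes 10.8% were higher and 8.07% lower by that rule. The summed level of the 13 liver genes was 14240 CPM in oxamate-treated hypoxia, 23366 CPM in hypoxia and 35209 CPM in normoxia. The part of this difference in the carrier values was not tested. Of 5 endothelial markers 1 reached 1 CPM and KDR was at 0. The 1 was PECAM1, at 19.9 CPM in oxamate-treated hypoxia, 8.31 CPM in hypoxia and 1.28 CPM in normoxia. Of 5 blood markers 1 did (LYZ) and CD3E was at 0, and of 5 fibroblast markers 3 did and DCN was at 0. Their summed levels lay between 1.55 and 60.4 CPM over all sets and libraries. Mitochondrially encoded genes held 7.21%, 5.80% and 8.46% of fragments in oxamate-treated hypoxia, hypoxia and normoxia. Less RNA of 1 gene per cell and fewer cells that express it cannot be told apart in these bulk libraries.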

How the data were processed

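The authors deposited FPKM for 61533 genes in each of 3 libraries, per the file headers. Per the submitters' processing notes, the tools were edgeR 3.22.5, featureCounts 1.5.0-p3, StringTie 1.3.3b and HISAT2 2.0.5, in no stated order, and the build was hg38. Whether strand was marked is not given in the sources used here. FPKM times exon length gave whole multiples of 1 constant per library (100% of values within 0.01), and these were used as fragments. The X and Y listings of pseudoautosomal genes were summed. Scaling between libraries used trimmed means of M values over 21985 genes with at least 10 fragments (30% of log ratios and 5% of levels trimmed), with factors of 1.01, 1.05 and 0.944 for oxamate-treated hypoxia, hypoxia and normoxia, computed with scipy 1.17.1, pandas 2.3.3 and numpy 2.4.6 under Python 3.11.15. Samples were grouped by their titles. No test across samples was possible with 1 library per group. Medians use a prior count of 0.5. Members with at least 50 fragments in a library are named, apart from loci not reported here. Those past 2-fold or the 2 highest of each substrate class are given with fragments, CPM and FPKM. Exon overlaps and gene types came from GENCODE 29, which matched 58312 of 61487 genes. The procedure was tested on simulated data. A few loci are not reported here. Members, lists and rules were chosen with earlier results of these data known. Protein sequences were not analysed here.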

Additional observations from a re-analysis of the deposited data

How the results depend on the processing

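Of the counts of carriers past 2-fold, the 1 that was higher with oxamate against hypoxia (SLC25A36) stayed at 1 under every alternative tried. For hypoxia against normoxia, the 1 higher carrier (SLC25A12) became 0 with FPKM and a pseudocount of 1, with at least 200 fragments, without genes that share exons, and under the rule that the entire interval exceed 2-fold. The 5 lower carriers became 6 with SLC25A39 added under scaling by the median of ratios and with FPKM and a pseudocount of 0.1. They became 2 under total-fragment scaling, 2 with FPKM and a pseudocount of 1, 0 with the gene length trend removed, 3 without genes that share exons, 17 at 1.5-fold, and 2 with the entire interval past 2-fold (SLC25A23 and SLC25A33). For oxamate-treated hypoxia against hypoxia, the 1 lower carrier became 2 under total-fragment scaling, with SLC25A37 added, 3 at 1.5-fold, and 0 with FPKM and a pseudocount of 1 or 0.1, with at least 200 fragments, without genes that share exons, and under the rule that the entire interval exceed 2-fold. For oxamate-treated hypoxia against normoxia, the 1 higher carrier became 2 with the length trend removed and 2 at 1.5-fold. The 9 lower became 6 under total-fragment scaling, without SLC25A1, SLC25A10 and SLC25A28, and 6 without genes that share exons. They became 5 with FPKM and a pseudocount of 1, 4 with the length trend removed, 16 at 1.5-fold, and 5 with the entire interval past 2-fold, and the carrier median moved to -0.38 with the length trend removed. The removal of that trend also centres the median gene at 0. Fewer members enter with at least 200 fragments and without genes that share exons; the cause of the other moves was not tested. No value of a carrier past 2-fold changed sign under any alternative tried. No paired analysis was possible because each condition has 1 library and no test was run. Protein sequence features were planned and not run. With 1 library per condition, differences between cultures are unknown, and counting limits SLC25A12, SLC25A18, SLC25A6 and SLC25A53 most.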

Other observations

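Proteins of the same fold that carry other names were measured alongside. UCP1, the uncoupling protein of brown fat, was listed at 80 fragments in oxamate-treated hypoxia, 7 in hypoxia and 7 in normoxia, and was 12.6-fold higher (5.86 to 32.5) with oxamate than in hypoxia. UCP2 was listed at 0 in all 3 libraries, and UCP3 had 16, 25 and 23 fragments in oxamate-treated hypoxia, hypoxia and normoxia. The outer membrane relatives MTCH1 and MTCH2 stood at 68.8, 68.0 and 80.3 FPKM and at 31.4, 33.2 and 47.6 FPKM in the same libraries, both within 2-fold in every comparison.

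The tables list 38 pseudogenes and 6 antisense genes of the members. None of the pseudogenes reached 50 fragments in a library: 30 were at 0 throughout, and the highest, SLC25A5P5, had 13, 17 and 4 fragments in oxamate-treated hypoxia, hypoxia and normoxia. Of the antisense genes 1 reached 50 fragments, SLC25A25-AS1, with 560, 624 and 387 fragments in these libraries. A second antisense gene, SLC25A5-AS1, had 20, 36 and 13.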
